A study of Homo sapiens with 6 samples.

Results

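The 5 genes described here are PVR, the nectin genes NECTIN2, NECTIN3 and NECTIN1, and CADM1, a family of cell surface adhesion molecules that includes ligands for receptors of natural killer (NK) and T cells. They were chosen by gene symbol, as 5 of the 24462 symbols counted, and the files list the nectins under their older names PVRL2, PVRL3 and PVRL1. All 5 passed the filter on low counts that left 15386 genes for testing. RNA was counted in 6 libraries, 2 for each of 3 groups, all labelled as the breast cancer line MDA-MB231, which lacks hormone receptors. The controls carry a control retrovirus. Both other groups carry a retroviral shRNA against ELK3 as a stable knockdown line. One was given the empty plasmid pLenti-cMyc-DDK and is called vector-labelled here, and the other was given pLenti-cMyc-DDK-ELK3 and is called ELK3-labelled. Both plasmid groups received 1 µg of DNA with Lipofectamine and were harvested at 48 hours, and no plasmid is recorded for the controls, so knockdown and transfection cannot be told apart in a contrast with them. Whether the replicates were separate cultures is not given, so p-values may measure technical spread only.

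Nectins and nectin-like proteins are immunoglobulin-type adhesion molecules that bind each other across neighbouring cells. PVR (CD155, also nectin-like 5) and nectin-2 (CD112) on a tumour cell engage the activating receptor DNAM-1. The inhibitory receptor TIGIT competes with DNAM-1 for these ligands. CD96 is a further receptor for PVR and PVRIG is one for nectin-2. Nectin-3 is a trans partner of nectin-1, nectin-2 and PVR, and nectin-1 acts mainly in adherens junctions and as a herpesvirus entry receptor. CADM1, or nectin-like 2, is the ligand of CRTAM, a receptor that appears on activated NK and CD8+ T cells.

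In the GENCODE 29 annotation of GRCh38, PVR lies on chromosome 19 from 44643798 to 44663583 and NECTIN2 from 44846175 to 44889228 on the same strand, with 183 kb between them. NECTIN1 (119623408 to 119729084) and CADM1 (115169218 to 115504957) lie on chromosome 11, both on the minus strand and 4.12 Mb apart, and NECTIN3 lies on chromosome 3 from 111070071 to 111275563. The RefSeq table of promoters, on GRCh38.p14, held 3 of the 5 genes, PVR, NECTIN2 and NECTIN3. These 300 bases, from 250 before to 50 after the start in RefSeq, are shown because the 3 genes share a lower level in both plasmid groups and the study targeted a transcription factor. Capitals mark matches to GGGCGG (the GC box) on either strand. All 3 are on the plus strand, at chr19:44643660-44643959 for PVR, chr19:44846047-44846346 for NECTIN2 and chr3:111071566-111071865 for NECTIN3. The RefSeq starts lie downstream of the GENCODE gene starts given above, and that of NECTIN3 over 1 kb downstream, so its window lies inside the GENCODE gene.
PVR: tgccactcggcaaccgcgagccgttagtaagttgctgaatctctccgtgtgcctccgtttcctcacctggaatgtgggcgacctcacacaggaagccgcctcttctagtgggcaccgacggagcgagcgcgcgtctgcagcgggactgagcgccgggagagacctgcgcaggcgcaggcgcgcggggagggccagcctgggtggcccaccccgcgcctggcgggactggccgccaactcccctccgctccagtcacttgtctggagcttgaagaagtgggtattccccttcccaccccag
NECTIN2: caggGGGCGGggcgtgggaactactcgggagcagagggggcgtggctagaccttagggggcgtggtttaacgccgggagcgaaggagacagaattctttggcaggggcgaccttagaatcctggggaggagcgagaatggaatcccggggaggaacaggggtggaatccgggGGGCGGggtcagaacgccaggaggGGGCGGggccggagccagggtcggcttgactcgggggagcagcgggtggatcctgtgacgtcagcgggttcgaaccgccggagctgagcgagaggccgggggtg
NECTIN3: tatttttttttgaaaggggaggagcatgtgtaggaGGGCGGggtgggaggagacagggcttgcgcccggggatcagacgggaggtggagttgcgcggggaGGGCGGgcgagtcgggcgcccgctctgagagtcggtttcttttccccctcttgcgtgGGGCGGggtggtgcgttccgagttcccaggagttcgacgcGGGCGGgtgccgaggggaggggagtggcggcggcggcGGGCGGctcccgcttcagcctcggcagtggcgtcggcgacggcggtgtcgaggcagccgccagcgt

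The NECTIN2 stretch held 3 GC boxes and the NECTIN3 stretch 5, all read on the plus strand, and the PVR stretch held 0. Of all 35116 promoters in the table, 45% held at least 1 match. None of the 3 stretches held CCGGAA on either strand (17.2% of all promoters). This is a strict form of GGAA, the core bound by ETS factors such as ELK3. GGAA on its own, which the printed stretches contain, was not searched for. Nor did any hold the CArG box of SRF (1.29%), TATAAA (11.5%) or TGANTCA, the AP-1 site (7.71%), on either strand. These are matches of letters in a short window, and no binding was measured.

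ELK3, the targeted gene, ran against the labels. Its level in CPM, counts scaled to a common library size by the TMM method of edgeR, was 128.6 and 123.9 for the controls. The vector-labelled libraries held 758.9 and 697.2 CPM and the ELK3-labelled libraries 20.35 and 22.65 CPM. The count columns of the files carry the opposite names, KD+E for the group labelled with the empty plasmid and KD for the group labelled with ELK3. Groups follow the sample labels here. Exchanging the names of the plasmid groups would swap the first pair of comparisons and turn the sign of the last one. Library totals ran from 4884483 to 9131214 counts.

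The MDA-MB-231-type and HEK293-type marker lists differed between controls and both plasmid groups. Of 20 genes typical of MDA-MB-231 and other mesenchymal breast cancer cells, 20 were lower in the vector-labelled libraries and 19 in the ELK3-labelled ones. Their summed level was 6943 to 7085 CPM in the controls, 1061 to 1077 and 1153 to 1198 CPM, and none was at 0 in any library. Of 15 genes typical of the embryonic kidney line HEK293, 14 were tested, with 9 higher and 2 lower in the vector-labelled and 12 higher and 1 lower in the ELK3-labelled libraries. Their sum was 207.3 to 207.9 CPM in the controls, with PAX2 at 0 in both, 510.8 to 546.1 CPM in the vector-labelled and 778.4 to 779.8 CPM in the ELK3-labelled libraries. In the controls 2 and 4 of these 15 genes were at or under 3 counts. In each plasmid library 1 of the 20 MDA-MB-231-type genes was at or under 3 counts. Where tested, such genes passed the filter through the groups where they were high, so these counts of calls are no test of the lists. Against the controls, 35.3% of all tested genes were called lower and 37% higher in the vector-labelled libraries. The shares were 30.8% and 31.8% in the ELK3-labelled ones. Both marker lists thus moved with the contrasts with the controls, and their part in the results was not tested. In bulk RNA, fewer cells of a type and less RNA per cell cannot be told apart either.

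**Figure D1:**
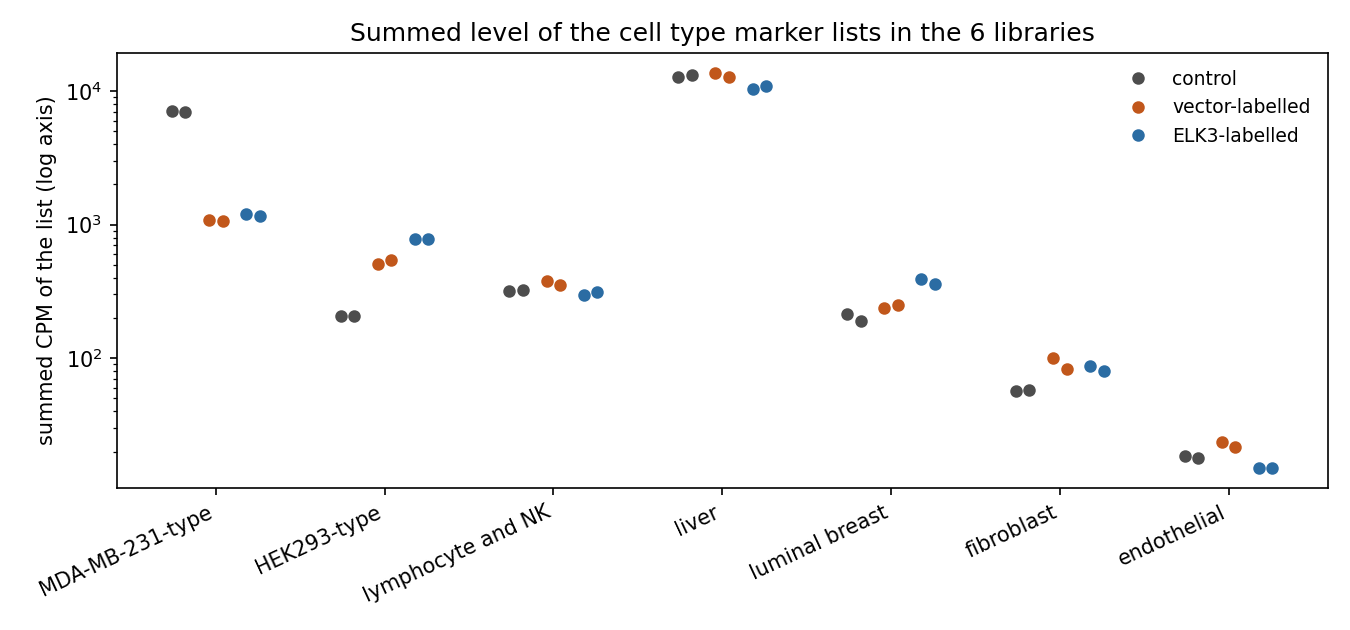
Summed CPM of 7 marker lists (log axis) in each of the 6 libraries, 1 point per library. MDA-MB-231-type markers sit at 6943 to 7085 CPM in the controls and at 1061 to 1198 CPM in the plasmid groups, and liver transcripts at 10330 to 13710 CPM in every library.

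In the vector-labelled libraries, 4 of the 5 genes were lower than in the controls and 1 was higher. PVR, NECTIN2, NECTIN3 and NECTIN1 fell, where 35.3% of all tested genes were called lower, and CADM1 rose, where 37% were called higher and 72.3% were called in either direction. The same split held in the ELK3-labelled libraries against the controls, where 30.8% of all genes were called lower, 31.8% higher and 62.6% in either direction. Both comparisons use the same control libraries. Between the plasmid groups, the 3 nectin genes and CADM1 were higher in the ELK3-labelled libraries, where 30% of all genes were called higher, and PVR was not called. Genes called lower there were 29.6% and called either way 59.6%. With so many genes called in each comparison, the count of members called is no result about them as a set, and their changes are described by size, gene by gene.

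PVR fell about 3-fold in both plasmid groups and did not differ detectably between them. The controls held 175 and 185 CPM (837 and 862 counts). The vector-labelled libraries held 65.2 and 59.2 CPM and the ELK3-labelled libraries 52.8 and 59.6 CPM, so both control libraries were high and the plasmid groups overlapped each other. The mean fell from 180.2 ± 7.3 to 62.2 ± 4.24 CPM (SD, n = 2) in the vector-labelled group, a log2 fold change of -1.53 ± 0.1 (SE, adjusted p = 1.65e-15). In the ELK3-labelled group it was 56.2 ± 4.84 CPM, a log2 fold change of -1.67 ± 0.1 (adjusted p = 1.53e-16). Counted from the most negative fold change, these ranked 1641st and 919th of 15386 genes. Between the plasmid groups the log2 fold change was -0.14 ± 0.1 (adjusted p = 0.234), with a 95% interval of -0.36 to 0.07. In the annotation the end of PVR overlaps CEACAM19 on the same strand, which stood at 3 to 8.37 CPM in all 6 libraries, and how reads in the overlap were counted is not stated.

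NECTIN2, the other DNAM-1 ligand of the group, was lowest in the vector-labelled libraries. Its control libraries held 61.5 and 70.5 CPM, its vector-labelled libraries 25.6 and 25.8 CPM, and its ELK3-labelled libraries 45.8 and 56.5 CPM. The 3 groups did not overlap. The fall in the vector-labelled group was 2.57-fold (log2 fold change -1.36 ± 0.13, adjusted p = 3.93e-11). The ELK3-labelled libraries were 2.01-fold above the vector-labelled ones (1.01 ± 0.13, adjusted p = 3.99e-08), a change of more than the spread between replicates and the largest of the 5 genes in that comparison. Against the controls, the ELK3-labelled group differed by only -0.36 ± 0.12 (adjusted p = 0.00851). That last call ended without control replicate 2 (log2 fold change -0.26, adjusted p = 0.111), without ELK3-labelled replicate 1 (-0.22, adjusted p = 0.162), with library totals in place of TMM (-0.2, adjusted p = 0.142) and with DESeq2 (-0.37, adjusted p = 0.0553). In the same comparison all 12 liver transcripts of a marker list were called lower, as were 30.8% of all tested genes. The liver transcripts summed to 10330 to 13710 CPM per library, with a median log2 fold change of -0.29. The part of this shift in the NECTIN2 value was not tested.

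NECTIN3, which pairs with nectin-1, nectin-2 and PVR across cell contacts, showed the same order of groups, with larger falls from the controls and a smaller step between the plasmid groups than NECTIN2. Control libraries held 175.5 and 156.1 CPM, vector-labelled libraries 45.5 and 52.6 CPM and ELK3-labelled libraries 79.2 and 81.9 CPM, with no overlap between any 2 groups. It fell 3.4-fold in the vector-labelled group (-1.76 ± 0.1, adjusted p = 1.31e-16) and 2.06-fold in the ELK3-labelled group (-1.04 ± 0.1, adjusted p = 2e-11). Between the plasmid groups it was 1.65-fold higher in the ELK3-labelled libraries (0.72 ± 0.11, adjusted p = 4.22e-07). The antisense transcript listed as PVRL3-AS1, which overlaps the start of the gene, had at most 2 counts in any library.

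NECTIN1 had between 54 and 146 counts per library, and the SEs of its fold changes were the largest of the 5 genes. The controls stood at 25.9 and 27.5 CPM, the vector-labelled libraries at 11.6 and 10.8 CPM, and the ELK3-labelled libraries apart from each other at 21.9 and 15.5 CPM. The groups did not overlap. It fell 2.37-fold in the vector-labelled group (-1.25 ± 0.19, adjusted p = 6.2e-07). In the ELK3-labelled group the log2 fold change was -0.54 ± 0.17 against the controls (adjusted p = 0.0068) and 0.71 ± 0.19 against the vector-labelled group (adjusted p = 0.00177). The first of these calls ended without ELK3-labelled replicate 2 (-0.29, adjusted p = 0.237), with library totals (-0.38, adjusted p = 0.0605) and with DESeq2 (-0.53, adjusted p = 0.0614), and the other without ELK3-labelled replicate 1 (0.47, adjusted p = 0.0651).

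CADM1 moved the other way and by the largest amount of the 5 genes in both contrasts with the controls. The controls held 31.4 and 27.5 CPM (150 and 128 counts). Vector-labelled libraries reached 262.7 and 230.7 CPM, and ELK3-labelled libraries 283.5 and 302.9 CPM. All 4 plasmid libraries lay far above both controls. The rise was 8.38-fold in the vector-labelled group (3.07 ± 0.12, adjusted p = 2.6e-22) and 9.95-fold in the ELK3-labelled group (3.32 ± 0.12, adjusted p = 2.53e-23), ranking 978th and 498th from the top among 15386 genes. The plasmid groups differed by 0.25 ± 0.09 (adjusted p = 0.0132), with the ELK3-labelled libraries higher. The difference lost its call without vector-labelled replicate 2 (log2 fold change 0.17, adjusted p = 0.188), without ELK3-labelled replicate 2 (0.21, adjusted p = 0.117) and with a filter of 10 CPM in 2 libraries (0.18, adjusted p = 0.0626).

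**Figure D2:**
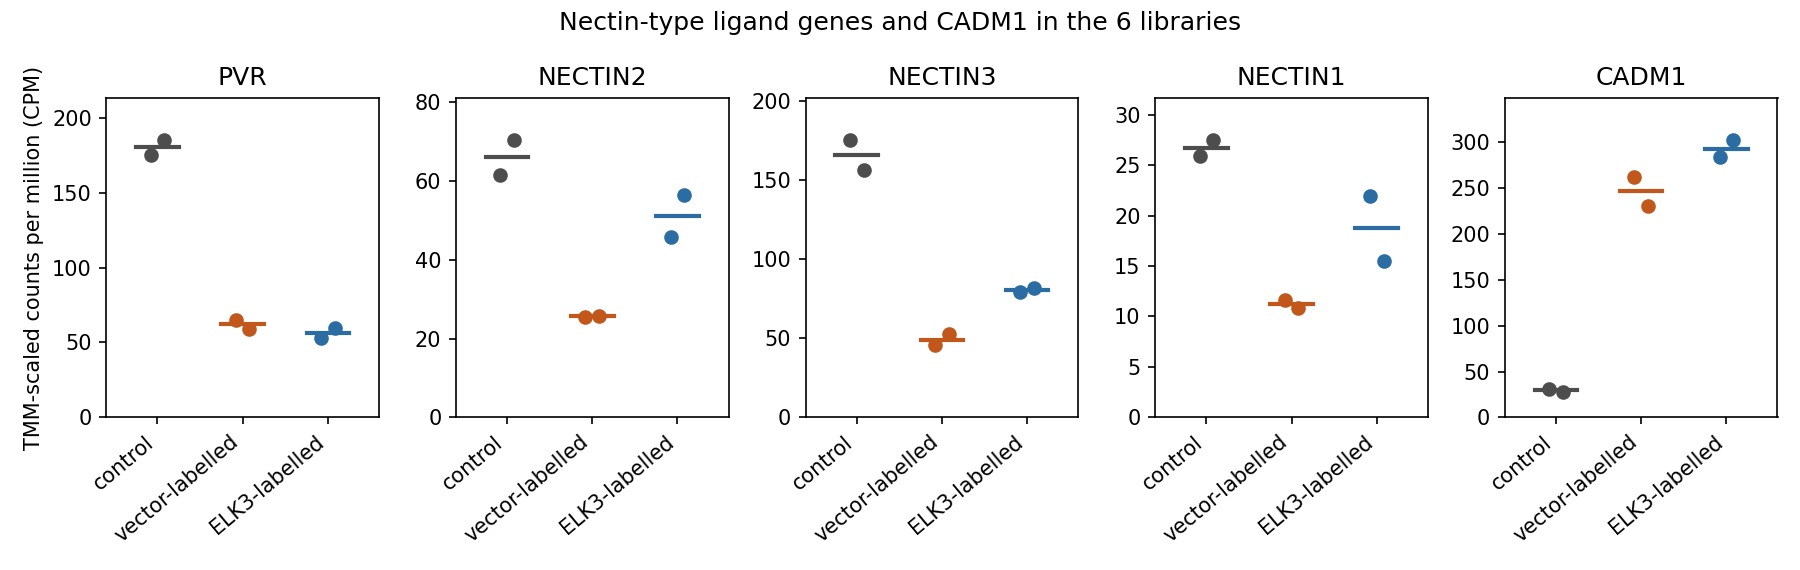
TMM-scaled CPM of the 5 genes in each library (points), with the mean of the 2 libraries of a group as a line; each panel starts at 0 and has its own axis. The control libraries are highest for PVR and the 3 nectins and lowest for CADM1 (27.5 to 31.4 CPM against 230.7 to 302.9 CPM in the plasmid groups).

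The order of the groups thus took 3 forms. NECTIN1, NECTIN2 and NECTIN3 were ordered control, ELK3-labelled, vector-labelled from high to low. For PVR the controls were high, and the vector-labelled and ELK3-labelled groups did not differ beyond their spread. For CADM1 the controls were low, and the step between the plasmid groups was small against that from the controls. None of the 5 genes followed the order of ELK3 itself, which was highest in the vector-labelled and lowest in the ELK3-labelled libraries, nor was any in the exact reverse order.

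**Figure D3:**
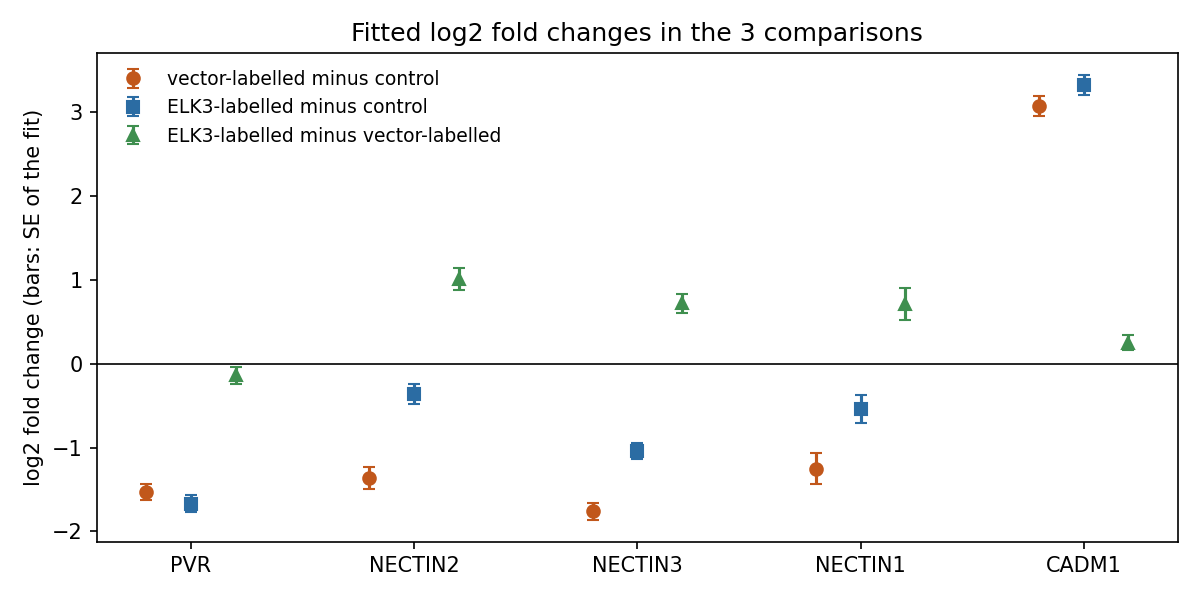
Fitted log2 fold changes of the 5 genes in the 3 comparisons, with bars for the SE of the fit. PVR lies near 0 between the plasmid groups (-0.14), the nectins lie at 0.71 to 1.01 there, and CADM1 stands at 3.07 and 3.32 against the controls.

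Ratios of raw counts within a library do not depend on scaling between libraries, and a change in such a ratio does not depend on transcript length. NECTIN2 counts divided by PVR counts gave 0.351 and 0.381 for the controls, 0.392 and 0.436 for the vector-labelled group, and 0.867 and 0.947 for the ELK3-labelled group. The balance between these DNAM-1 ligand genes was thus similar in controls and vector-labelled libraries, where both fell, and was 2.19-fold further toward NECTIN2 in the ELK3-labelled group than in the vector-labelled group. NECTIN3 to PVR ran from 0.698 to 1 in the controls and vector-labelled libraries together and was 1.37 and 1.5 in the ELK3-labelled libraries. NECTIN1 to PVR was 0.148 in both controls. It was 0.178 and 0.182 for the vector-labelled and 0.416 and 0.26 for the ELK3-labelled group. The ratio of CADM1 to PVR changed most, from 0.179 and 0.148 in the controls to 4.03 and 3.9 in the vector-labelled and 5.37 and 5.08 in the ELK3-labelled libraries. Its change from the controls was 24.4-fold in the vector-labelled and 32.1-fold in the ELK3-labelled group. Among the nectins, the ratio of NECTIN1 to NECTIN2 lay between 0.39 and 0.479 in 5 libraries and at 0.275 in ELK3-labelled replicate 2.

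**Figure D4:**
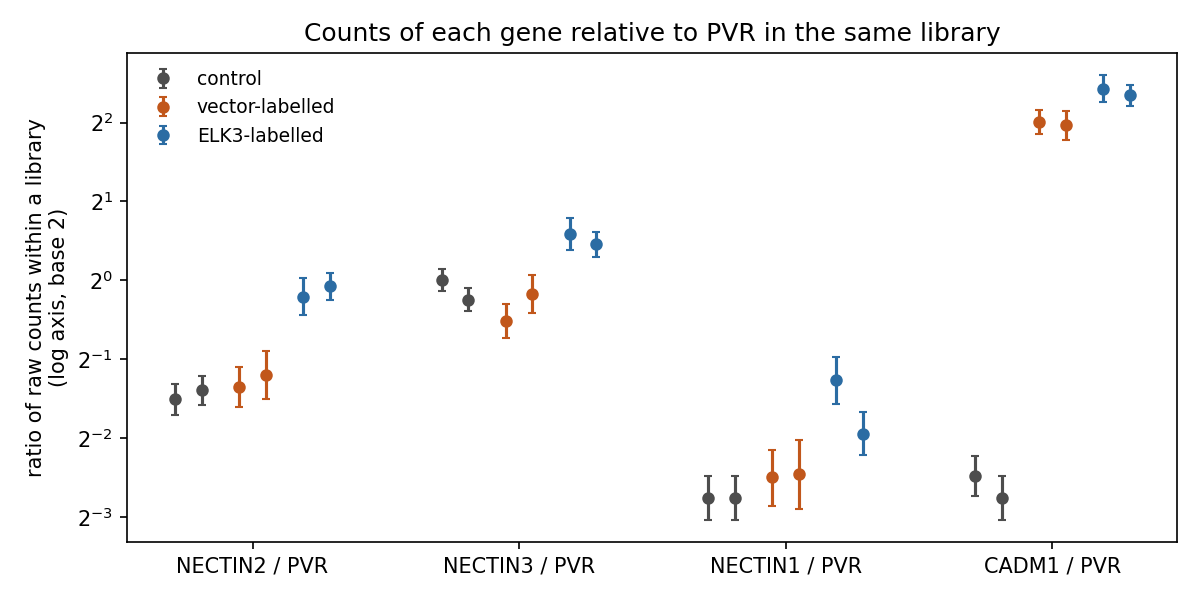
Raw counts of each gene divided by those of PVR in the same library, on a log axis of base 2, with exact 95% intervals that cover counting error only. For NECTIN2 the ELK3-labelled libraries (0.867 and 0.947) lie above the other 4 (0.351 to 0.436), and for CADM1 both plasmid groups lie above the controls.

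Genes with the nearest pattern were found by the distance between centred log2 CPM values over the 6 libraries, where 0 would be an identical pattern. PVR was nearest to DST (distance 0.157), PYCARD (0.161) and CCDC107 (0.164). NECTIN2 was nearest to PSMD7 (0.0884), TMEM33 and PRPF4B, NECTIN3 to CDC37 (0.131), TOMM34 and TNRC18, and NECTIN1 to RPL21P44 (0.198), EEF1E1 and DHX32. CADM1 was nearest to NKD2 (0.161), AUTS2 (0.198) and NETO2 (0.238), which went from 1.16, 7 and 4.13 CPM in the controls to 12.2, 63.4 and 32.7 CPM in the vector-labelled libraries. Within the group of 5, the closest pair was NECTIN1 and NECTIN2 (0.632), and PVR was nearer to NECTIN3 (0.948) than to NECTIN2 (1.42). The outside genes were picked as the nearest among all tested genes, so their distances cannot be set against those inside the group.

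Of the 4 other nectin and CADM family genes, CADM2 and CADM3 had at most 9 counts in any library and were not tested. NECTIN4 passed the filter through the vector-labelled libraries. Control libraries had 3 and 1 counts of it, vector-labelled libraries 70 and 59, and ELK3-labelled libraries 12 and 17. Its values went the other way from those of the other nectins, with a scaled count ratio of 25.8 (95% counting interval 9.82 to 96) of the vector-labelled group to the controls. The ratio of the ELK3-labelled to the vector-labelled group was 0.169 (0.109 to 0.255), and that of the ELK3-labelled group to the controls was 4.36 (1.53 to 17.1). These ratios are given without a test, since the gene entered the fit through the group where it was high. CADM4, at 2.15 to 4.89 CPM, was not called in any of the 3 comparisons. In the ELK3-labelled group against the controls this depended on the setting. It was called with library totals in place of TMM (log2 fold change 1.05, adjusted p = 0.0233). The same held with only the 4 libraries compared (0.9, adjusted p = 0.0478). Without ELK3-labelled replicate 1 the log2 fold change was 1.13.

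Transcripts of the lymphocyte receptors that bind these ligands were found at low levels in all groups. CD226, which encodes DNAM-1, had 1 to 7 counts per library and was not tested. TIGIT stood at 3.34 to 6.45 CPM, CD96 at 2.87 to 4.85 CPM and PVRIG at 8.75 to 11.9 CPM, and none of these 3 was called in any comparison. CRTAM, the receptor of CADM1, had 10 and 4 counts for the controls, 14 and 6 for the vector-labelled group and 0 and 3 for the ELK3-labelled group. Its ratio in the ELK3-labelled group was 0.113 (0.0215 to 0.38) to the vector-labelled group and 0.129 (0.0237 to 0.461) to the controls. Both ratios are given without a test, since CRTAM entered the fit through control and vector-labelled libraries, where it was higher. With only the 4 libraries of a comparison it did not pass the filter. In the same libraries 17 lymphocyte and NK markers summed to 317 to 325 CPM in the controls, 354 to 379 CPM in the vector-labelled and 298 to 315 CPM in the ELK3-labelled group, with none at 0, and their part in the receptor counts was not tested.

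Of 14 genes for cytoplasmic partners of nectins and CADM1, 8 rose and 2 fell in the vector-labelled group (median log2 fold change 0.38, against 0.05 over all genes). This was 71.4% of the list called, near the 72.3% of all tested genes. In the ELK3-labelled group 9 rose and 2 fell (0.54, against 0.02), 78.6% of the list against 62.6% of all genes. AFDN, which encodes afadin, the actin linker of nectins and listed as MLLT4, rose from 129.6 to 174.5 and 228.3 CPM. Its log2 fold changes were 0.43 ± 0.09 and 0.82 ± 0.09 (adjusted p = 7.04e-05 and 6.91e-10). EPB41L3, a protein 4.1 family gene whose product binds the tail of CADM1, rose from 2.54 to 42 and 28 CPM, and MPP2, a membrane scaffold gene, from 11.5 to 49 and 39.1 CPM. LMO7, an afadin-binding gene, fell from 62.1 to 21.3 and 25.2 CPM, and the scaffold gene CASK was not called in any comparison. Against the vector-labelled libraries, 5 rose and 3 fell in the ELK3-labelled ones (median 0.26, against -0.02), 57.1% of the list against 59.6% of all genes, and without vector-labelled replicate 2 these counts were 3 and 1 and without replicate 1 they were 6 and 1.

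Of 10 genes of classical adherens junctions, 9 were tested. In the vector-labelled group 4 rose and 4 fell (median -0.05), 88.9% of the list against 72.3% of all genes. In the ELK3-labelled group 3 rose and 2 fell (-0.01), 55.6% against 62.6%. CDH3, at 3 and 7 counts in the controls and 65 to 136 in the plasmid libraries, passed the filter through the plasmid groups. Its place in both counts was thus nearly fixed beforehand. CDH2, the gene of N-cadherin, rose from 20.5 to 89.8 and 161.4 CPM, and JUP, the gene of plakoglobin, from 10.4 to 98.9 and 52.3 CPM. The catenin genes CTNNB1 and CTNNA1 were, like the nectins, lower in the vector-labelled than in the ELK3-labelled libraries, by 0.41 ± 0.08 and 0.41 ± 0.09 on the log2 scale (adjusted p = 3.94e-05 and 0.000141). CTNNB1 went from 453.2 to 339.6 CPM in the vector-labelled group (-0.42 ± 0.08, adjusted p = 2.37e-05) and stood at 451.4 CPM in the ELK3-labelled group. Between the plasmid groups 5 of the 9 rose and 2 fell in the ELK3-labelled libraries (median 0.23), 77.8% of the list against 59.6% of all genes, and without vector-labelled replicate 2 these counts were 3 and 1.

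Of 23 other genes for ligands of NK cell receptors, 21 were tested. In the vector-labelled group 11 fell and 3 rose (median -0.53, against 0.05 over all genes), so that 66.7% were called, below the 72.3% of all genes. In the ELK3-labelled group 12 fell and 3 rose (-0.88, against 0.02), 71.4% called against 62.6%. In the ELK3-labelled against the vector-labelled libraries 3 rose and 5 fell (-0.29, against -0.02), 38.1% called against 59.6%. Without ELK3-labelled replicate 1 the last counts were 2 and 3, and without ELK3-labelled replicate 2 they were 1 and 5. The genes counted as risen in both contrasts with the controls included NCR3LG1, which encodes the NKp30 ligand B7-H6, and ULBP1, an NKG2D ligand gene. Both passed the filter through the plasmid groups, where they were high, so only their levels are given, without a test. RAET1E, at 32 and 26 counts in the controls and 2 to 5 in the plasmid libraries, passed it through the controls. RAET1G, at 2 and 3 counts in the ELK3-labelled libraries, passed it through the other groups. The counts of calls above include such genes, so they are no test of the list. NCR3LG1 went from 0.953 to 9.72 and 16.3 CPM and ULBP1 from 1.57 to 12.8 and 17 CPM, a direction shared with CADM1. ICAM1, the ligand of the integrin LFA-1, fell from 23.5 to 2.62 and 2.65 CPM, and CD58, the ligand of CD2, from 21.1 to 6.8 and 9.95 CPM. MICA, another NKG2D ligand gene, had the order of the nectins, with 1.21 ± 0.24 between the plasmid groups (adjusted p = 3.13e-05). MICA, MICB, BAG6, HLA-E and HLA-G each stand on several lines of the files, which were summed.

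**Figure D5:**
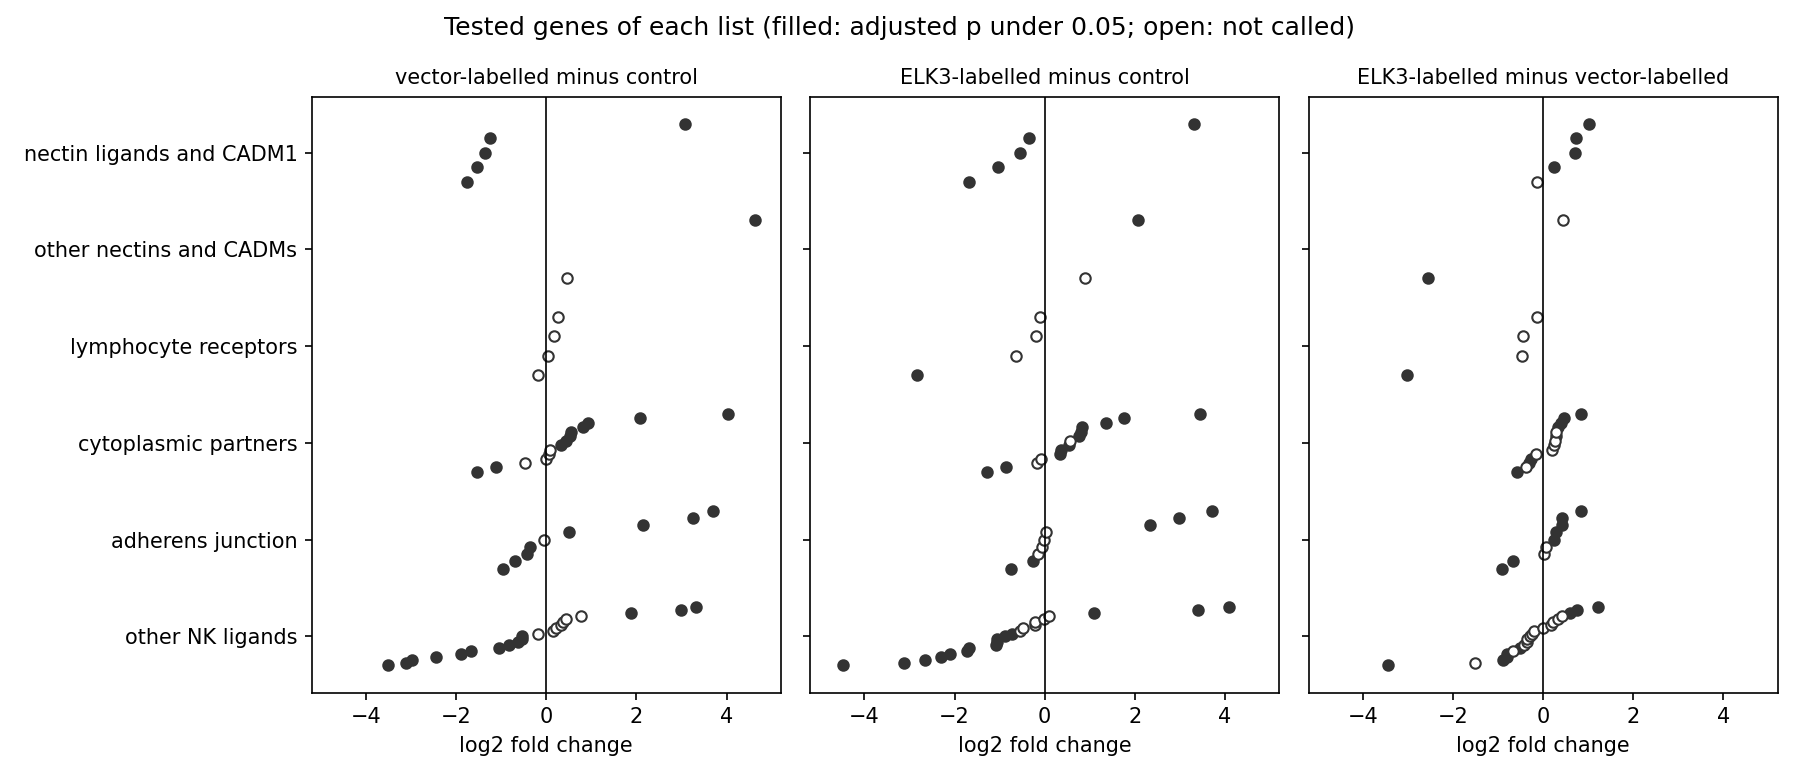
Fitted log2 fold changes of every tested gene of 6 lists in the 3 comparisons, 1 point per gene, filled where the adjusted p was under 0.05. Genes that entered the fit through the group where they were high, such as NECTIN4, CRTAM, NCR3LG1 and ULBP1, are drawn too. A filled point is no test for them. PVR and the nectins lie to the left in both contrasts with the controls with CADM1 to the right at 3.07 and 3.32, and the nectins and CADM1 lie to the right between the plasmid groups.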

How the data were processed

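The authors deposited raw counts per gene symbol for 6 RNA libraries, per the file headers and values. Per the labels' protocols the libraries were made with the LEXOGEN Quant-Seq kit. The submitters' processing notes name Bowtie2, edgeR and hg19; the counter, annotation and filters are not given in the sources used here. Levels were therefore not compared between genes.

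Each file holds 25737 lines with 24462 symbols; 1561 lines of 286 repeated symbols were summed, and none of the 5 genes was among them. The test was that of edgeR 4.0.16 in R 4.3.3 (filterByExpr, TMM, 1 robust quasi-likelihood model over all 6 libraries with 3 residual degrees of freedom). Two-sided p-values of all 15386 genes were adjusted together (Benjamini-Hochberg) and called under 0.05. SEs come from the information matrix of the fit. Patterns used log2 CPM with a prior count of 2, and the 3 nearest genes per member were named, without LOC symbols. DESeq2 1.42.0 and limma 3.58.1 served as alternatives, with the replicate block, other scalings, other filters and each library left out. The test was tried on simulated data.

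A count of 3, the limit that 0 counts allow, stands for 0.329 to 0.614 CPM. Intervals of count ratios cover counting error only, and the interval of a log2 fold change comes from the SE of the fit. The genes, lists and tests were chosen with earlier results of these data known, and every gene of the lists could be named with its values. Replicates differed by more than sampling noise (chi-square over its degrees of freedom, 2.21 to 3.02). Python 3.11.15 drew the plots.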

Additional observations from a re-analysis of the deposited data

How the results depend on the processing

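The 15 fold changes of the 5 genes were refitted under 15 alternatives each, 225 values in all: 214 kept their direction and their side of the threshold, 11 kept their direction and lost the call, and 0 turned. Library totals gave -0.2 for NECTIN2 and -0.38 for NECTIN1 in the ELK3-labelled group against the controls, and DESeq2 gave -0.37 and -0.53. A filter of 10 CPM gave 0.18 for CADM1 between the plasmid groups. Leaving out 1 library at a time moved these from -0.53 to -0.22 (NECTIN2) and from -0.78 to -0.29 (NECTIN1) against the controls. Between the plasmid groups it moved NECTIN1 from 0.47 to 0.97 and CADM1 from 0.17 to 0.35. The cause was not tested. The falls of PVR, NECTIN3 and, in the vector-labelled group, NECTIN1 and NECTIN2, and the rises of CADM1, were called against the controls under all 15 alternatives. Library totals moved the median of all genes from 0.02 to 0.18 in the ELK3-labelled group against the controls, and the share of called genes that were higher from 50.8% to 61.1%.

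Same-numbered replicates did not deviate together (correlations of -0.0556, 0.0332 and -0.000659), so the numbers were not taken as pairs. With the replicate number as a block, 11057, 9531 and 9051 genes were called, against 11117, 9633 and 9174 without it, and no call of the 5 genes changed. With the filter of 10 CPM 11 of the 23 NK ligand genes were tested, and 2 rose and 7 fell in each contrast with the controls; DESeq2 called 4 higher and 1 lower cytoplasmic partners, 3 and 2 adherens junction genes and 1 and 3 NK ligand genes between the plasmid groups. The 54 counts of NECTIN1 in vector-labelled replicate 2 were the fewest of any of the 5 genes.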

Other observations

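Between PVR and NECTIN2 on chromosome 19 the annotation holds 5 protein-coding genes, of which 3 were tested; this stretch was looked at after the values of the members were seen. BCL3, which encodes an IkappaB-family regulator of NF-kappaB, stood at 43.92 and 33.55 CPM in the controls, 7.79 and 7.6 CPM in the vector-labelled and 12.88 and 10.95 CPM in the ELK3-labelled libraries. Its log2 fold change was -2.33 ± 0.2 in the vector-labelled (adjusted p = 8.59e-13) and -1.72 ± 0.17 in the ELK3-labelled group (adjusted p = 1.33e-10). BCAM, an adhesion receptor gene for laminin, stood at 7.66 to 10.7 CPM in all 6 libraries, and neither it nor CEACAM19 was called in any comparison. Of the tested genes between PVR and NECTIN2, BCL3 was thus called lower as they were, and BCAM and CEACAM19 were not. A common cause along this stretch was not tested.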
